A study of Mus musculus with 8 samples.

Results

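Long intergenic noncoding RNAs (lincRNAs) that were well counted in nuclei of cortical GABAergic neurons are described here. A gene was taken when GENCODE release M21 (mouse build GRCm38) gives it the type lincRNA and when its deposited count, averaged over 7 libraries, was 50 or more, so the members were chosen by a measured level and not by a difference between groups. This left 312 lincRNAs out of 5854 annotated ones, of which 3383 had at least 1 read, and out of 55450 annotated genes. All 312 passed the filter on low counts and were tested. The mean count that chose them ran from 50.1 for 0610043K17Rik and Gm36899 to 214249 for Meg3, with a median of 119.9. In 26 of them the mean reached 50 in controls but not in mutants, and in 9 the reverse held.

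A lincRNA is transcribed, spliced and often polyadenylated like a messenger RNA, but it holds no long reading frame and lies between protein-coding genes. Many stay in the nucleus, where some build nuclear bodies, some act on chromatin near their own locus, and some are mainly the precursors of microRNAs or small nucleolar RNAs carried in their introns or exons. Their expression tends to be restricted to few cell types, and in neurons several lie beside genes of developmental transcription factors or in imprinted regions.

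The samples were nuclear RNA of fluorescent nuclei sorted from single cortices of juvenile mice, in 2 groups. In both groups a Cre driver, whose promoter the labels do not name, switched on a nuclear fluorescent reporter in GABAergic neurons. Controls were Thra+/+, and mutants were Thra+/AMI, in which Cre also switched on a Thra allele whose product, a thyroid hormone receptor, is dominant-negative. Of 8 deposited samples, 4 controls and 3 mutants were used, because the tables of mutants 7 and 10 did not differ in any of the 55220 genes compared by symbol and were counted as 1 sample, called mutant 7. The labels name 1 mouse per sample, and the exact age was not given in the sources used here.

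Total counts ran from 10747169 to 13804734 per library. Levels are in CPM, counts scaled to the effective library total, with the SD over libraries. Thra stood at 114 ± 9.35 CPM (n = 4 controls) and 87.5 ± 9.39 CPM (n = 3 mutants), with a log2 fold change of -0.39 that did not pass the threshold (SE 0.11, edgeR adjusted p 0.0543). Thra did pass with DESeq2 (adjusted p 0.0284), limma-voom with sample quality weights (0.00359), an offset for genomic length (0.00956), without control 1 (0.0275), without control 4 (0.0149) and without both (0.000755). It did not pass without control 2, control 3 or any single mutant (edgeR adjusted p up to 0.239). Nor did Thra pass with other scalings, a covariate for Y-linked reads or no filter. Control 4 had 4 reads of Y-linked genes and mutant 8 had 3, against 5094 to 6644 in the other libraries. Nuclei of the labelled type were found in both groups: 11 markers of GABAergic neurons summed to 5259 to 6475 CPM in controls and 5841 to 7039 CPM in mutants, and Dlx1 and Dlx6 were listed at 0. Among 9 markers of parvalbumin neurons 5 were lower in mutants, with Pvalb falling from 40.99 ± 5.91 to 1.81 ± 0.682 CPM (edgeR, adjusted p 7.63e-07), while their summed level overlapped, at 2026 to 3091 CPM in controls and 2193 to 2470.3 CPM in mutants. Among 7 markers of somatostatin neurons 3 were higher, their summed level being 743 to 808 CPM in controls and 1107 to 1331 CPM in mutants. Of 7 VIP neuron markers 2 were lower and 3 higher (sums 374 to 571 against 547 to 570.1 CPM), and of 6 LAMP5 neuron markers 1 was lower and 1 higher (827 to 1014 against 974 to 1251 CPM), with overlapping sums. Among markers of other cells, 8 astrocyte genes summed to 245 to 324 CPM in controls and 195 to 222 CPM in mutants, with Gfap at 0. The sum of 6 genes of striatal projection neurons was 106 to 181 CPM in controls and 187 to 231 CPM in mutants. Sums for 8 glutamatergic genes (334 to 471 against 276 to 354 CPM), 8 oligodendrocyte genes (159.8 to 198 against 175 to 210.1 CPM), 7 microglial genes (14.96 to 20.5 against 19.3 to 23.5 CPM, P2ry12 at 0) and 7 endothelial genes (59.6 to 133.7 against 60.7 to 86.3 CPM) overlapped between the groups. The part of these markers in the lincRNA results below was not tested, and in such bulk samples fewer cells of a type and less RNA per cell cannot be told apart.

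What a lincRNA's count holds was read from the tables. All 13127 genes whose whole span lies inside other genes had 0 reads in every library, among them 6263 covered only by genes of the opposite strand and 9566 that share no exon base with another gene. The nuclear lincRNA Xist was one of 637 lincRNAs of this kind, and the marker genes named above as listed at 0 were among the 13127 too. A count is therefore treated here as the reads over the part of a gene's span that no other gene covers, introns included and strand not used. For the 312 lincRNAs this unshared part was a median of 99.8% of the span, 90% or more in 237, under 50% in 18, and 13.1% at the lowest. Reads from transcripts that run out of a neighbouring gene fall in the same counts and cannot be told apart from the lincRNA's own.

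A few loci held most of the signal. Together the 312 lincRNAs took between 4.28% and 4.97% of a control library's counts and between 4.45% and 4.79% of a mutant's, and the 3 most counted gave 75.3% of that, the 10 most counted 82.7%. Meg3, the maternally expressed RNA of the imprinted Dlk1-Dio3 region (chromosome 12, 109541001 to 109571726, plus strand), stood at 14586, 18270.1, 17354 and 18198 CPM in controls 1 to 4 and at 17235, 16904 and 16892 CPM in mutants 6, 7 and 8, which overlapped (log2 fold change -0.01, SE 0.28, edgeR adjusted p 0.992). Gm26917, a locus of ribosomal RNA-like sequence on chromosome 17, took between 1.05% and 1.59% of a control's counts and between 1.08% and 1.45% of a mutant's (log2 fold change -0.02). Malat1, the RNA of nuclear speckles (chromosome 19, 5795690 to 5802672, minus strand), was at 7086, 6621, 5181 and 4607 CPM in controls 1 to 4 and 3795, 4739.9 and 3823 CPM in mutants. Mutant 7 lay above control 4, so the groups of Malat1 overlapped, and its log2 fold change of -0.51 (SE 0.25) did not pass the threshold (edgeR, adjusted p 0.243). It did pass with DESeq2 (adjusted p 0.0320), with limma-voom and sample quality weights (0.0296) and with an offset for genomic length (0.00810). It also passed without control 4 (edgeR adjusted p 0.0499) and without controls 1 and 4 (0.00961). Malat1 did not pass without any other single library (edgeR adjusted p up to 0.514). Nor did it pass with other scalings, a covariate for Y-linked reads or no filter.

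**Figure D1:**
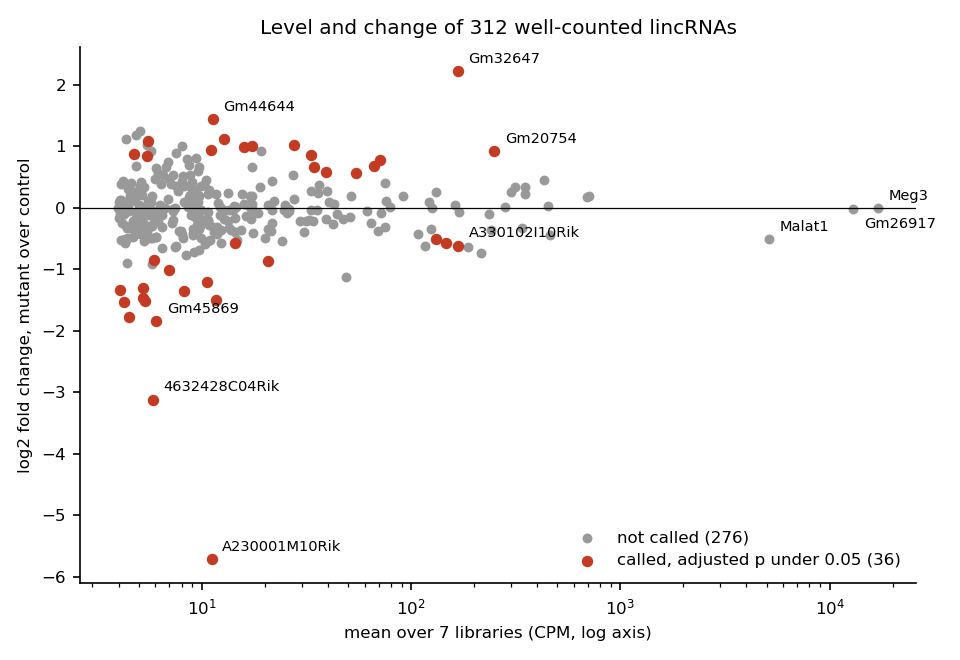
Each point is 1 of the 312 lincRNAs, with the mean over 7 libraries in CPM on a log axis and the log2 fold change between genotypes, mutant over control, on the vertical axis; red points passed an edgeR adjusted p under 0.05. The 3 most counted lincRNAs, Meg3, Gm26917 and Malat1, are grey, and the points farthest from 0 are A230001M10Rik at -5.71 and Gm32647 at 2.21.

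Levels of different lincRNAs were set side by side only per length. Per kb of merged exons the median was 5.52 CPM, and the highest were Gm26917 (3891 CPM per kb), Meg3 (943), Gm27000 (820.2), Malat1 (733), Gm45881 (224), A230006K03Rik (206), Gm20754 (161), Gm28928 (112), Mir124a-1hg (96.1) and A330102I10Rik (94.5). Exon length is not the counted length, so the order per unshared span is given beside it. Per kb of unshared span the median was 0.732 CPM, and Gm26917, Gm27000, Malat1 and Meg3 still led, whereas Gm45881, with a span of 164393 bases, stood at 0.705 CPM per kb on that scale. Miat, a nuclear lincRNA with only 13.8% of its span unshared, stood at 37.8 CPM per kb of merged exons and 157 CPM per kb of unshared span. Gm27000 on chromosome X shares its sequence with Meg3: 93.7% of the 50-base words of its transcript also occur in Meg3, and its count was 3.56% to 4.60% of the Meg3 count in every library. It was also the member with the smallest spread among controls, at 646, 650.0, 661 and 664 CPM (coefficient of variation 1.28%).

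Between the genotypes, 36 of the 312 lincRNAs changed, 19 lower and 17 higher in mutants (edgeR quasi-likelihood test, Benjamini-Hochberg adjusted p under 0.05 over 16448 tested genes). That is 11.5% of the members, beside 9.42% of all tested genes, 10.5% of tested genes with a mean count of 50 or more, 10.3% of protein-coding genes and 5.19% of 559 tested lincRNAs under the count limit. By direction, 6.09% were lower (4.78% over all tested genes) and 5.45% higher (4.63%), so neither share is far from the background. The median log2 fold change was -0.04 for the members and -0.01 for all tested genes, and the median absolute value was 0.31 and 0.21. Of the 19 lower lincRNAs 10 reached a mean count of 50 only in controls, and of the 17 higher ones 2 did so only in mutants, so those passed the count limit through the group where they were high. Log2 fold changes beyond 1 in size were found for 13 lower and 6 higher called lincRNAs (6.09% against 3.9% of all tested genes). All 36 had groups that did not overlap in CPM, as did 74 members in all (23.7%, against 22% of all tested genes), and 87 members had an unadjusted p under 0.05 (27.9%, against 22.5%). The calls were sensitive to single libraries. Leaving out mutant 6, 7 or 8 gave 16, 20 and 22 calls in all, and 16, 19 and 22 of the 36 were still called. Leaving out control 3 gave 24 calls, and there were 52 calls without control 1 and 69 without control 4. Of the 36, 11 were called in every fit.

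A230001M10Rik (ENSMUSG00000105891.4, chromosome 3, 102262405 to 102445132, plus strand) fell most. Its counts were 128, 271, 235 and 351 reads in controls 1 to 4 and 1, 3 and 9 reads in mutants 6, 7 and 8, or 19.2 ± 7.49 CPM (SD, n = 4) against 0.352 ± 0.3198 CPM (SD, n = 3). Every control was far above every mutant, and the log2 fold change was -5.71 (SE 0.51, edgeR adjusted p 3.83e-05). The gene has 7 merged exons over 182728 bases. Among controls, control 4 was highest and control 1 lowest.

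4632428C04Rik (ENSMUSG00000097184.2, chromosome 16, 30008667 to 30021430, plus strand) had the second largest fall. It measured 10.8, 8.84, 9.74 and 8.39 CPM in controls and 0.939, 1.29 and 1.02 CPM in mutants, with little spread in either group (log2 fold change -3.12, SE 0.25, edgeR adjusted p 1.82e-05). It lies 42.95 kb upstream of Hes1, which encodes a transcriptional repressor downstream of Notch, and both are on the plus strand. Hes1 fell from 17.4 ± 3.16 CPM (SD, n = 4) to 5.27 ± 1.94 CPM (SD, n = 3), with no overlap (log2 fold change -1.72, SE 0.25, edgeR adjusted p 0.00101). Both lincRNAs kept their calls without any 1 library.

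The start regions of these lincRNAs are shown because thyroid hormone receptors bind DNA at the half-site AGGTCA. The windows run from 250 bases before to 50 bases after the annotated start and are RefSeq sequence of GRCm38.p6, plus strand, 5′ to 3′. Capitals mark the half-site on either strand (AGGTCA or TGACCT). The first 2 windows, those of the 2 largest falls, hold none. The third, of D730003I15Rik, described below, is not that of the next largest fall. It holds 2 half-sites, whose first bases lie at -249 and -161 from the start. It is not typical, as 2 of the 10 called falls with a window held a half-site, D730003I15Rik among them.
A230001M10Rik, chr3:102262155-102262454: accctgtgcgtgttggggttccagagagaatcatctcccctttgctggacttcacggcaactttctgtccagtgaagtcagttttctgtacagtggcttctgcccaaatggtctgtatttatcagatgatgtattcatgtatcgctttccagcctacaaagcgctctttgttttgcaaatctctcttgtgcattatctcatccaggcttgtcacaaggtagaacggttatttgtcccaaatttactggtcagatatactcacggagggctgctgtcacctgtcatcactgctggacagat
4632428C04Rik, chr16:30008417-30008716: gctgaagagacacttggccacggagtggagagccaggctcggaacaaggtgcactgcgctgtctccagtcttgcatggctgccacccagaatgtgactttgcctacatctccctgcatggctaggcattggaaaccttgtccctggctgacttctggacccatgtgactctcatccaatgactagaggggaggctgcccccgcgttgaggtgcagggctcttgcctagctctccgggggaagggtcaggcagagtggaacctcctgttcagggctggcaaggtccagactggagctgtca
D730003I15Rik, chr1:191224204-191224503: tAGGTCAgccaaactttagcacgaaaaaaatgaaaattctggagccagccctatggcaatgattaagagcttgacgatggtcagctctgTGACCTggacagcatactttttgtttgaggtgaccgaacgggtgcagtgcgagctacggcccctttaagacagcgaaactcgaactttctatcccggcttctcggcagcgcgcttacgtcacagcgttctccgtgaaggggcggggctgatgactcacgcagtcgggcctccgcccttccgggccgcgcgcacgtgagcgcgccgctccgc
Such windows were found for 157 of the 312 lincRNAs. The half-site, searched on both strands, was in those of 23 lincRNAs (14.6%) and in those of 18.1% of all 27025 genes with a window. Among called lincRNAs with a window it was found for 2 of 10 lower ones, D730003I15Rik and Gm14114, and for 1 of 11 higher ones, 4930555F03Rik. The direct repeat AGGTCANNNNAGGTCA, searched on both strands, was in 0 windows of the 312 lincRNAs and in 5 of all 32851 windows. A match is a description of letters in a window, not a bound site.

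Gm17322 and Gm14005 were further falls beside called genes. Gm17322 (chromosome 9, 57998041 to 58007451, plus strand) overlaps the start of Cyp11a1, whose enzyme makes pregnenolone from cholesterol, on the same strand. It was at 7.53, 5.67, 9.59 and 6.05 CPM in controls and 2.27, 2.85 and 2.66 CPM in mutants, without overlap (log2 fold change -1.48, SE 0.26, edgeR adjusted p 0.00362). Cyp11a1 fell too, from 19.7 ± 1.22 to 5.35 ± 2.19 CPM (log2 fold change -1.86, edgeR adjusted p 0.000618). Gm14005 (chromosome 2, 128178319 to 128502765, minus strand) converges on Bcl2l11, the gene of the pro-apoptotic protein BIM, 15.8 kb away. Values of Gm14005 were 3.81, 7.103, 7.003 and 5.73 CPM in controls and 1.25, 2.57 and 2.35 CPM in mutants (log2 fold change -1.53, SE 0.32, edgeR adjusted p 0.0104), and the call was lost without mutant 6 (0.0599), the adjusted p of that fit being in parentheses here and below. Bcl2l11 fell from 38.8 ± 8.49 to 11.3 ± 0.974 CPM (log2 fold change -1.78, edgeR adjusted p 0.000118). The groups of both genes stood apart in every library.

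A divergent pair also fell. A930029G22Rik (chromosome 17, 69416660 to 69439304, minus strand) starts 22 bases from Akain1, a gene for a small inhibitor of anchoring of protein kinase A. It was at 22.2, 23.3, 23.5 and 33.6 CPM in controls and 14.2, 11.8 and 15.8 CPM in mutants (log2 fold change -0.88, SE 0.18, edgeR adjusted p 0.00937). Control 4 stood above the other 3 controls, and every control was above every mutant. Akain1 measured 53.4, 60.4, 47.04 and 64.5 CPM in controls and 33.5, 28.9 and 32.1 CPM in mutants (log2 fold change -0.84, edgeR adjusted p 0.00196). The call of the lincRNA was lost without mutant 7 (0.06602).

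Other falls had neighbours that were not called. Gm45869, on chromosome 6 and 14.5 kb upstream of the potassium channel gene Kcna5, was at 6.11, 6.95, 9.97 and 12.2 CPM in controls and 3.68, 2.11 and 1.49 CPM in mutants (log2 fold change -1.85, SE 0.34, edgeR adjusted p 0.00496). Kcna5 was at 0.954 ± 0.345 and 2.08 ± 0.318 CPM and did not pass (log2 fold change 1.12, edgeR adjusted p 0.0771). Gm43154, a gene of 23 merged exons on chromosome 6, was at 11.5, 18.9, 16.1 and 18.1 CPM in controls and 6.73, 4.04 and 6.18 CPM in mutants (log2 fold change -1.51, edgeR adjusted p 0.00166). Its nearest gene Podxl, 41.2 kb away and divergent, had a log2 fold change of -0.36 (edgeR, adjusted p 0.6398). The unspliced D730003I15Rik, 6.42 kb from the stress-response gene Atf3, was at 10.9, 8.61, 11.6 and 13.6 CPM in controls and 3.05, 3.95 and 6.02 CPM in mutants (log2 fold change -1.36, edgeR adjusted p 0.00562). In all 3 the groups were separate and the call held without any 1 library, while Atf3 had 0 to 11 reads and was not tested.

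C230035I16Rik, Gm35725 and Gm14114 completed the 10 largest falls. C230035I16Rik on chromosome 13, 4.11 kb upstream of Abt1, was at 11.3, 6.35, 4.72 and 3.55 CPM in controls and 1.64, 1.93 and 2.03 CPM in mutants (log2 fold change -1.79, edgeR adjusted p 0.0121). Control 1 was the highest library here, and the adjusted p rose past the threshold without mutant 6 (0.07299), mutant 7 (0.0623) and mutant 8 (0.0548). Gm35725 on chromosome 12 was at 5.31, 5.14, 7.46 and 11.6 CPM in controls and 2.19, 3.03 and 2.502 CPM in mutants (log2 fold change -1.52, edgeR adjusted p 0.0108), and lost its call without mutant 6 (0.0694) and mutant 8 (0.0583). Gm14114 on chromosome 2 was at 4.36, 4.16, 4.796 and 8.71 CPM in controls and 2.11, 3.03 and 1.41 CPM in mutants, with control 4 far above the other controls (log2 fold change -1.34, edgeR adjusted p 0.0318). That call was lost without control 3 (0.0571), mutant 6 (0.122) and mutant 8 (0.153).

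Of the remaining called falls, A330008L17Rik starts 171 bases from Cdh8, the gene of a neuronal cadherin, in the opposite direction. It was at 9.597, 15.9, 12.3 and 18.3 CPM in controls and 6.34, 6.52 and 5.396 CPM in mutants (log2 fold change -1.21, SE 0.23, edgeR adjusted p 0.00665), and its call held without any 1 library. Cdh8 itself overlapped between the groups, at 95.7 to 168 CPM in controls and 102 to 126 CPM in mutants (log2 fold change -0.30, edgeR adjusted p 0.358). Highest per kb of merged exons among the called falls was A330102I10Rik, 60.7 kb from the transcription factor gene Sox4 in divergent orientation. It was at 151, 209.8, 189 and 237 CPM in controls and 133, 117 and 135 CPM in mutants. Per kb of unshared span the called fall Mir124-2hg stood above it, at 6.99 against 6.46 CPM. The log2 fold change of A330102I10Rik was -0.62 (edgeR, adjusted p 0.0208). That call was lost without control 2 (0.0678), control 3 (0.0507), mutant 6 (0.0804), mutant 7 (0.1305) and mutant 8 (0.0776). Sox4 had a log2 fold change of 0.30 (edgeR, adjusted p 0.204). The other called falls outside microRNA hosts, listed after their values were seen, were Gm4211 (-1.31), Gm17753 (-1.02), Gm26594 (-0.86), Gm20045 (-0.58) and Gm10419 (-0.58), as log2 fold changes. Each of these 5 lost its call without at least 1 library, at adjusted p-values up to 0.185 (Gm26594, without mutant 7).

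Gm32647 (ENSMUSG00000108532.1, chromosome 7, 94042691 to 94709171, plus strand) rose most. It covers 666481 bases in 3 merged exons and lies 961 kb from the nearest protein-coding gene, Fam181b, which has no base of its own in the annotation and was listed at 0. Levels were 39.8, 62.5, 65.5 and 93.5 CPM in controls 1 to 4 and 356, 271 and 282 CPM in mutants 6, 7 and 8. The lowest mutant was well above the highest control, control 4. The log2 fold change was 2.21 (SE 0.22, edgeR adjusted p 9.38e-05), and the call held without any 1 library.

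Gm31218 (chromosome 13, 64449437 to 64508611, plus strand) was the rise with the smallest standard error among the 10 largest. It overlaps Fam240b on the opposite strand, and 64.4% of its span is unshared. It was at 16.6, 19.9, 20.8 and 18.95 CPM in controls and 34.9, 42.9 and 38.5 CPM in mutants, so the groups were widely apart (log2 fold change 1.02, SE 0.13, edgeR adjusted p 0.000514). 4732496C06Rik (chromosome 7, 116546865 to 116549364, plus strand) is an unspliced gene 6.28 kb downstream of Nucb2 on the same strand. Nucb2 encodes nucleobindin 2, the precursor of the peptide nesfatin. Levels of 4732496C06Rik were 4.76, 2.57, 3.43 and 4.11 CPM in controls and 8.76, 8.08 and 6.803 CPM in mutants (log2 fold change 1.08, edgeR adjusted p 0.0141), and the call was lost without mutant 6 (0.0785) and mutant 7 (0.0644). Nucb2 rose from 12.5 ± 1.35 to 22.8 ± 0.896 CPM, also without overlap (log2 fold change 0.86, SE 0.14, edgeR adjusted p 0.00265).

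Gm20754 had the highest level per kb of merged exons among the called lincRNAs, at 161 CPM per kb. Per kb of unshared span, which is nearer to the counted length, it stood at only 0.669 CPM, under the median of the members. It covers 528515 bases of chromosome 3 and starts 8.51 kb from Slitrk3, a gene for an adhesion protein of inhibitory synapses, in the opposite direction. It was at 119, 195, 162 and 248 CPM in controls and 335, 383 and 308 CPM in mutants (log2 fold change 0.92, SE 0.20, edgeR adjusted p 0.0137). All 3 mutants were above all 4 controls, and the call was lost without mutant 6 (0.0592) and mutant 7 (0.0833). Slitrk3 had a log2 fold change of -0.22 and was not called (edgeR, adjusted p 0.314). Gm34354, 11.9 kb downstream of the neurotrophin receptor gene Ntrk2 on chromosome 13, was at 7.69, 7.78, 8.83 and 7.501 CPM in controls and 16.6, 17.2 and 11.8 CPM in mutants (log2 fold change 0.93, edgeR adjusted p 0.00661). It lost its call without mutant 7 (0.0516), and Ntrk2 itself stood at 685 ± 183 and 683 ± 67.3 CPM (log2 fold change -0.01).

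AC166748.2 and Gm33045 were also among the 10 largest rises. AC166748.2 on chromosome 19 was at 6.35, 6.197, 6.62 and 15.002 CPM in controls and 20.3, 16.2 and 18.7 CPM in mutants, control 4 being near the mutants (log2 fold change 1.11, edgeR adjusted p 0.0284). Its call was lost without control 2 (0.0935), control 3 (0.0833), mutant 6 (0.125), mutant 7 (0.0752) and mutant 8 (0.1004). Gm33045 on chromosome 13 was at 3.17, 3.93, 2.82 and 4.03 CPM in controls and 6.02, 6.52 and 6.57 CPM in mutants (log2 fold change 0.87, edgeR adjusted p 0.0279), a call lost without control 3 (0.08801), mutant 6 (0.0796), mutant 7 (0.101) and mutant 8 (0.106). The further called rises, named after their values were seen, were Gm9866, Dbpht2 (0.66 as a log2 fold change) and A330069E16Rik (0.84), besides 2 in the clusters and 2 microRNA hosts described below. Gm9866 on chromosome 12 lies 174 kb from Sox11, a transcription factor gene of neuronal differentiation, on the same strand. It was at 47.9, 43.98, 42.2 and 47.5 CPM in controls and 81.4, 60.6 and 59.2 CPM in mutants (log2 fold change 0.56, edgeR adjusted p 0.0164), and Sox11 at 20.1, 21.99, 19.9 and 18.6 CPM and 32.2, 39.3 and 32.5 CPM (log2 fold change 0.78, edgeR adjusted p 0.00262). Neither gene overlapped between the groups. Calls were lost for Gm9866 without control 2 (0.05798), control 3 (0.0612) and mutant 6 (0.102), for Dbpht2 without control 2 (0.103), control 3 (0.0944), mutant 7 (0.165) and mutant 8 (0.149) and for A330069E16Rik without control 2 (0.0606), control 3 (0.0716), mutant 6 (0.0917) and mutant 8 (0.158).

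**Figure D2:**
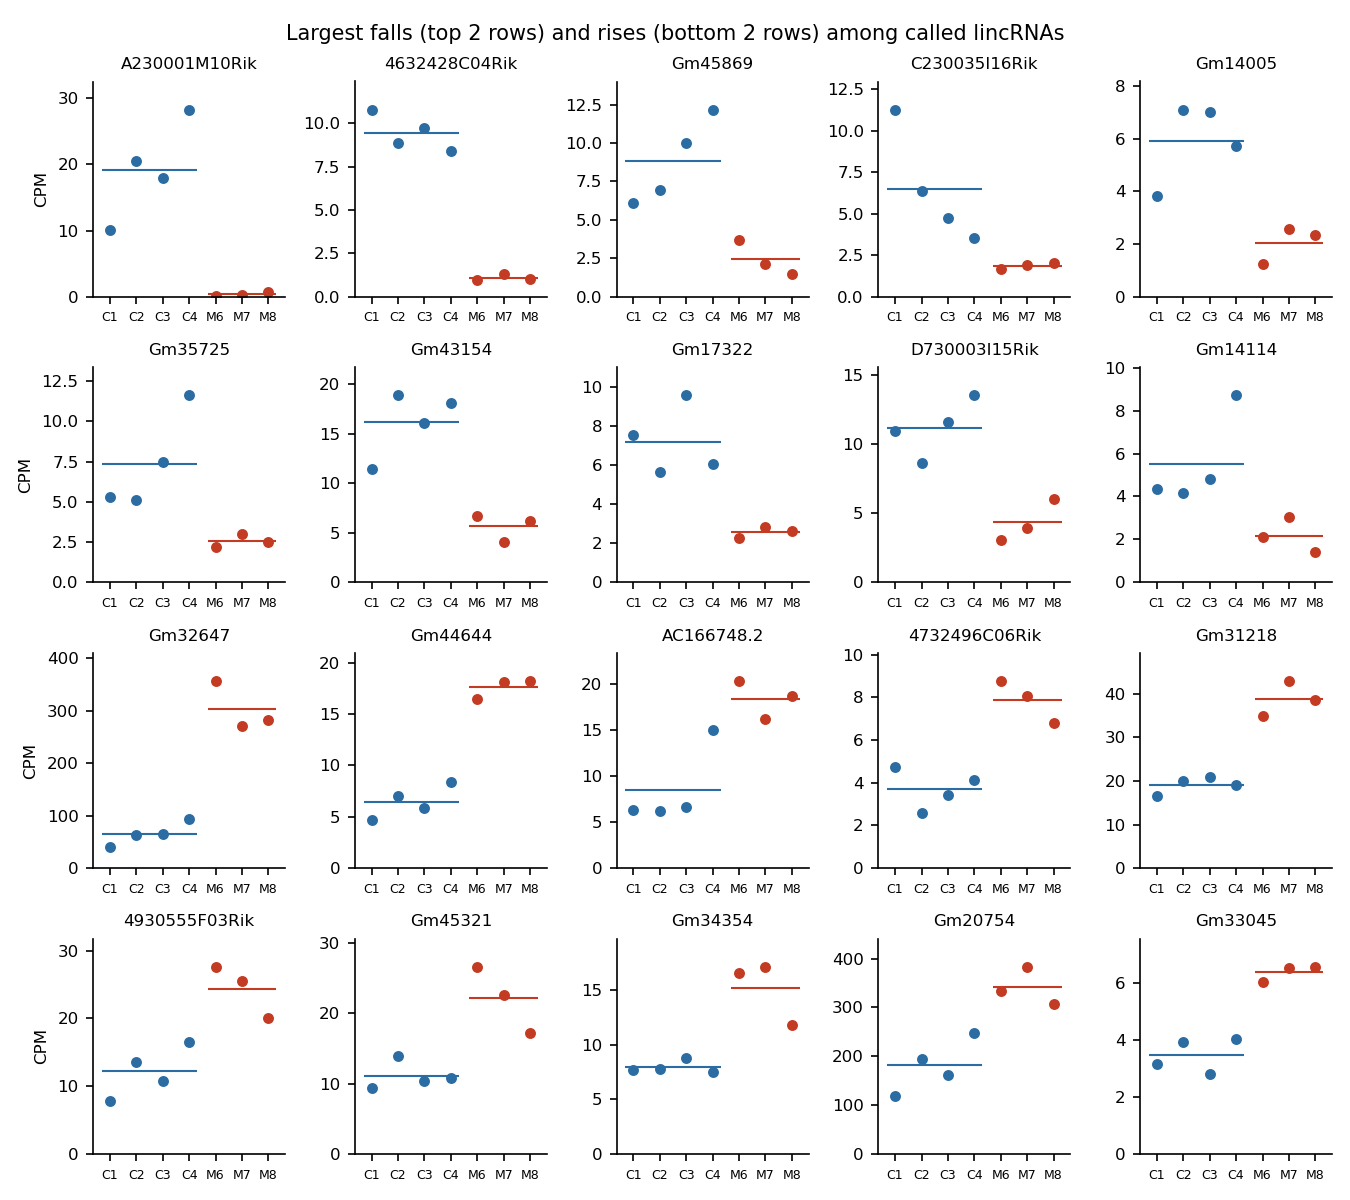
Each panel is 1 lincRNA, with TMM-scaled CPM from 0 on the vertical axis, controls 1 to 4 in blue (C1 to C4), mutants 6 to 8 in red (M6 to M8) and a line at each group mean. The top 2 rows hold the 10 largest falls and the bottom 2 rows the 10 largest rises; the mutants of A230001M10Rik lie near 0, at 0.0782 to 0.704 CPM, and those of Gm32647 at 271 to 356 CPM lie above the controls at 39.8 to 93.5 CPM.

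Called rises included neighbours on 2 chromosomes. The 312 lincRNAs formed 12 groups of 3 or more with gaps of at most 1 Mb, a description made after the values were seen. The 2 groups below are described because they held called rises. In the other groups the only call was the fall of Gm43154 on chromosome 6. Over all 312 members 11.5% were called, and 5.45% were called higher. On chromosome 8, 5 lincRNAs lie between 49370886 and 50916997, beyond the teneurin gene Tenm3, and 3 of them were called higher. 4930555F03Rik was at 7.85, 13.5, 10.8 and 16.5 CPM in controls and 27.6, 25.5 and 20.02 CPM in mutants (log2 fold change 1.00, edgeR adjusted p 0.0141). Gm45321 was at 9.36, 13.9, 10.4 and 10.8 and 26.6, 22.6 and 17.2 CPM (log2 fold change 0.99, edgeR adjusted p 0.00588), and C130073E24Rik at 17.1, 26.8, 21.5 and 33.7 and 44.8, 44.3 and 45.5 CPM (log2 fold change 0.86, edgeR adjusted p 0.0133). In each of the 3, every mutant was above every control. The other 2, Gm45323 and Gm45341, had log2 fold changes of 0.75 and 0.56 and were not called (edgeR, adjusted p 0.0704 and 0.379). Tenm3, 527 kb from the nearest of these lincRNAs, had a log2 fold change of -0.38 and was not called (edgeR, adjusted p 0.3097). Calls were lost for 4930555F03Rik without mutant 6 (0.0867) and mutant 7 (0.0719), for Gm45321 without mutant 6 (0.05001) and for C130073E24Rik without mutant 6 (0.0615), mutant 7 (0.0579) and mutant 8 (0.0588).

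On chromosome 7, 7 lincRNAs lie between 60915550 and 62423245, in the imprinted region that holds Snrpn and Ndn, where small nucleolar RNAs and the paternally expressed Prader-Willi genes are found. Gm44644 was at 4.68, 7.03, 5.86 and 8.39 CPM in controls and 16.5, 18.1 and 18.2 CPM in mutants (log2 fold change 1.44, SE 0.20, edgeR adjusted p 0.000813). B230209E15Rik was at 41.01, 64.4, 49.6 and 62.02 and 94.6, 97.4 and 85.3 CPM (log2 fold change 0.77, edgeR adjusted p 0.00628). Both calls held without any 1 library, with no overlap between groups. Gm44643, next to Gm44644, had a log2 fold change of 1.02 (edgeR, adjusted p 0.0616), while A230006K03Rik (0.25), A230057D06Rik (0.19), Gm9801 (0.25) and Gm32061 (-0.00) were not called either. Snrpn, whose product is a splicing protein, lies 775 kb from Gm44644 and rose from 68.2 ± 11.9 to 102 ± 7.304 CPM (log2 fold change 0.58, edgeR adjusted p 0.0207).

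**Figure D3:**
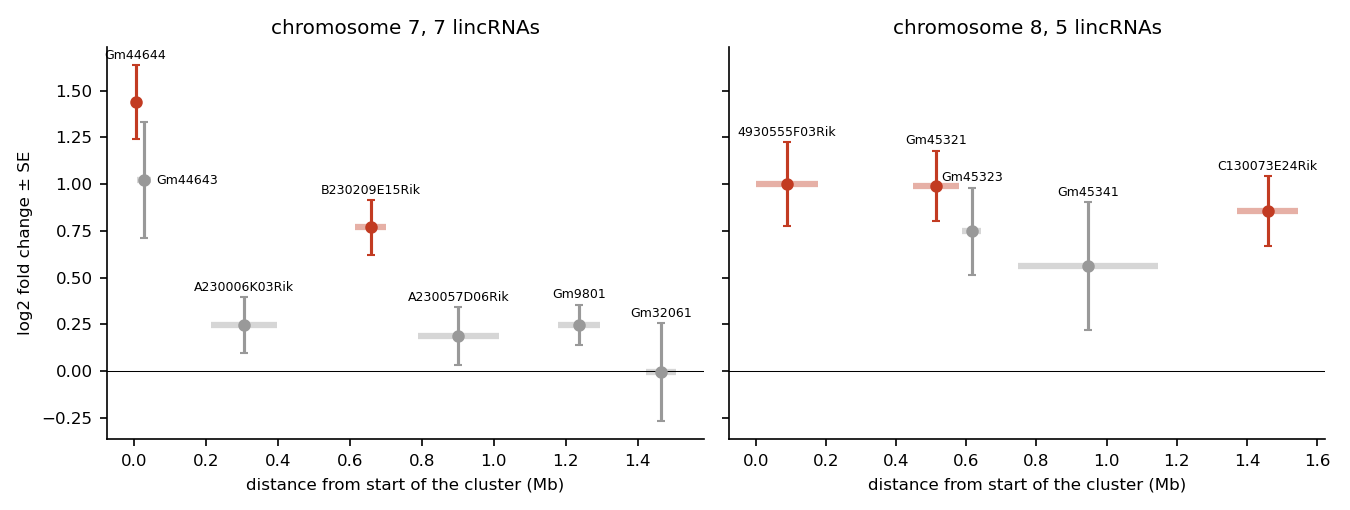
Log2 fold change between genotypes, mutant over control (points, with the SE as vertical bars) against the distance from the start of each cluster in Mb, with horizontal bars for the span of each lincRNA and red for those called. On chromosome 8 all 5 lincRNAs lie above 0, from 0.56 to 1.00, and on chromosome 7 they run from -0.00 to 1.44.

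In the imprinted cluster of chromosome 12 no lincRNA was called. Its maternally expressed lincRNAs Meg3, B830012L14Rik and Mirg had log2 fold changes of -0.01, -0.01 and 0.01, with standard errors of 0.28, 0.11 and 0.14. B830012L14Rik was at 119, 144, 121 and 118 CPM in controls and 136, 118 and 121 CPM in mutants. Mirg, which carries 26 mature microRNAs in the RefSeq table, was at 301, 296, 299.9 and 219 CPM in controls and 297, 277 and 266 CPM in mutants. Both overlapped between the groups. Rtl1, a retrotransposon-derived coding gene in the same region, lies on the opposite strand and overlaps none of these lincRNAs. It had a log2 fold change of 0.05 (edgeR, adjusted p 0.839). In the list of imprinted noncoding genes, 0 of 8 tested genes were called by edgeR, beside 9.42% of all tested genes. Their median log2 fold change was -0.01.

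MicroRNA hosts were the members with the best known products. By position on the same strand, 19 of the 312 lincRNAs hold 77 named mature microRNAs, and 2 of these 19, Mir670hg and 2900076A07Rik, were called, both higher. That share is near the background, as 11.5% of all 312 members and 9.42% of all tested genes were called. Mir124-2hg and Mir124a-1hg, named for miR-124, held none by this match and are not among the 19; Mir124-2hg was called lower, as given below. The mature sequences of Mir670hg and 2900076A07Rik are shown with that of miR-9-5p, which 3 members share. All are RefSeq sequence of GRCm38.p6, 5′ to 3′, with the seed (bases 2 to 8) in capitals.
miR-670-5p in Mir670hg: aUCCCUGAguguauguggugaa
miR-670-3p in Mir670hg: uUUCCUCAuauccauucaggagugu
miR-129-5p in Mir670hg: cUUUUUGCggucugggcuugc
miR-129-2-3p in Mir670hg: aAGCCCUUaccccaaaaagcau
miR-1839-5p in 2900076A07Rik: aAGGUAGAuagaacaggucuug
miR-9-5p in Gm3764, C130071C03Rik and Mir9-3hg: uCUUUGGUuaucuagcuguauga
These 6 sequences have 6 different seeds. Mir670hg (chromosome 2, 94160636 to 94264918, minus strand) was at 42.6, 56.4, 43.5 and 67.6 CPM in controls and 96.4, 84.6 and 71.9 CPM in mutants (log2 fold change 0.68, SE 0.17, edgeR adjusted p 0.0218). Its highest control, control 4, was just under its lowest mutant, and the call was lost without control 2 (0.052999), control 3 (0.0693), mutant 6 (0.126) and mutant 7 (0.08796). Gm3294, a second locus of miR-129-5p, was at 27.7, 31.1, 27.2 and 48.6 CPM in controls and 38.3, 27.4 and 32.7 CPM in mutants (log2 fold change -0.03, edgeR adjusted p 0.953); the difference between the 2 hosts was not tested. 2900076A07Rik (chromosome 7, 81523550 to 81531498, plus strand) was at 31.96, 36.4, 34.3 and 27.1 CPM in controls and 49.4, 52.1 and 44.6 CPM in mutants, clearly apart (log2 fold change 0.59, edgeR adjusted p 0.013003), and lost its call without mutant 6 (0.0647) and mutant 7 (0.0829). Counts of a host are not counts of its microRNAs, which were not measured.

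The hosts of miR-9, a microRNA of neural progenitors and neurons, were not called. Gm3764 was at 347, 396, 371 and 377 CPM in controls and 565, 521 and 444 CPM in mutants, which did not overlap (log2 fold change 0.45, SE 0.14, edgeR adjusted p 0.0572). C130071C03Rik beside Mef2c and Mir9-3hg overlapped between the groups, with log2 fold changes of 0.23 and 0.00 (edgeR, adjusted p 0.413 and 0.992). In the hosts named for miR-124, a microRNA abundant in neurons, every mutant library lay under every control. Mir124-2hg was at 153, 169, 139 and 142 CPM in controls and 89.8, 122 and 106 CPM in mutants and was called (log2 fold change -0.51, SE 0.13, edgeR adjusted p 0.0252). Its call was lost without control 2 (0.0861), mutant 6 (0.143) and mutant 8 (0.111) and with library totals in place of TMM (0.0571). Mir124a-1hg was at 586, 491, 535 and 476 CPM in controls and 397, 364 and 384 CPM in mutants and narrowly missed the threshold (log2 fold change -0.45, SE 0.14, edgeR adjusted p 0.0587). It passed with DESeq2 (0.00193), limma-voom with quality weights (0.00266), the genomic length offset (0.00227) and no filter (0.0430). It also passed without control 4 (edgeR adjusted p 0.0133) and without controls 1 and 4 (0.00227). Mir124a-1hg did not pass without any other single library (edgeR adjusted p up to 0.2596), with other scalings or with a covariate for Y-linked reads. Gm27032, which is in the same list of small RNA hosts, was at 76.9 ± 16.97 CPM in controls and 58.9 ± 5.48 CPM in mutants and overlapped (log2 fold change -0.38, edgeR adjusted p 0.1898). It passed with limma-voom (0.0187), without control 4 (0.00417) and without controls 1 and 4 (0.00238). Gm27032 did not pass without any other single library (edgeR adjusted p up to 0.478). Nor did it pass with DESeq2, other scalings, the length offset, a covariate for Y-linked reads or no filter.

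Hosts of small nucleolar RNAs were not called. The members Snhg6, Snhg10, Snhg12, Snhg20 and Epb41l4aos had log2 fold changes of -0.04, 0.00, 0.20, -0.11 and -0.05, and edgeR called none of them. Snhg20, the highest of them per kb of merged exons, was at 298, 243, 253 and 174 CPM in controls and 223, 219 and 230.4 CPM in mutants. Control 1 was the highest and control 4 the lowest library for Snhg6, Snhg10, Snhg20 and Epb41l4aos. For Snhg12 control 4 was the lowest too, and mutant 8 was the highest. In the list of small RNA hosts, which holds other gene types too, 1 of 21 tested genes was called lower, Mir124-2hg, and 0 higher. Over all tested genes 4.78% were called lower and 4.63% higher. That list does not hold Mir670hg and 2900076A07Rik, the microRNA hosts called higher above.

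LincRNAs of nuclear bodies and chromosome structure were not called either. Neat1, the scaffold of paraspeckles, had only 37 to 79 reads and 5.47, 3.55, 3.96 and 6.37 CPM in controls against 4.303, 3.397 and 3.75 CPM in mutants, which overlapped (log2 fold change -0.34, SE 0.26, edgeR adjusted p 0.516). Miat, a lincRNA of its own nuclear domain in neurons, was at 259, 357, 330.4 and 319 CPM in controls and 416, 393 and 381 CPM in mutants without overlap (log2 fold change 0.33, SE 0.14, edgeR adjusted p 0.178). Jpx and Ftx, which take part in X inactivation, had log2 fold changes of -0.27 and -0.07. Within their groups both were highest in control 4 and mutant 8, the libraries with few Y-linked reads. Jpx was at 69.1 CPM in control 4 against 29.5 to 44.1 CPM in the other controls. It was at 43.2 CPM in mutant 8 against 35.0 and 35.3 CPM in the other mutants, and the reason was not tested. The log2 fold change of 2900097C17Rik, also in the list of such lincRNAs, was -0.19. In that list 0 of 8 tested genes were called by edgeR, as were 0 of 13 genes for paraspeckle and speckle proteins, whose median log2 fold change was 0.08. In a list of genes compiled as neighbours of homeobox, SOX and other developmental genes, 1 of 11 tested genes was lower, A330008L17Rik. In that list 2 were higher, 6330403K07Rik (1.35) and 2610307P16Rik (0.73), neither of them annotated as a lincRNA. Over all tested genes 9.42% were called, 4.78% lower and 4.63% higher. Whether the counts in these short lists differ from that share was not tested. Pantr1, next to the transcription factor gene Pou3f3, was at 36.2, 39.3, 39.7 and 66.4 CPM in controls and 42.5, 34.1 and 50.3 CPM in mutants and overlapped (log2 fold change -0.10, edgeR adjusted p 0.843). Rmst, a cofactor of SOX2 in neurogenesis, was at 6.74, 4.16, 5.56 and 12.9 CPM in controls and 12.8, 9.46 and 9.62 CPM in mutants, with control 4 the highest of the 7 libraries (log2 fold change 0.54, edgeR adjusted p 0.368). It passed with limma-voom and quality weights (log2 fold change 0.89, adjusted p 0.00813), without control 4 (0.95, 0.0101) and without controls 1 and 4 (1.13, 0.00097). Rmst did not pass without any other single library (edgeR adjusted p up to 0.694). Nor did it pass with DESeq2, other scalings, the length offset, a covariate for Y-linked reads or no filter.

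**Figure D4:**
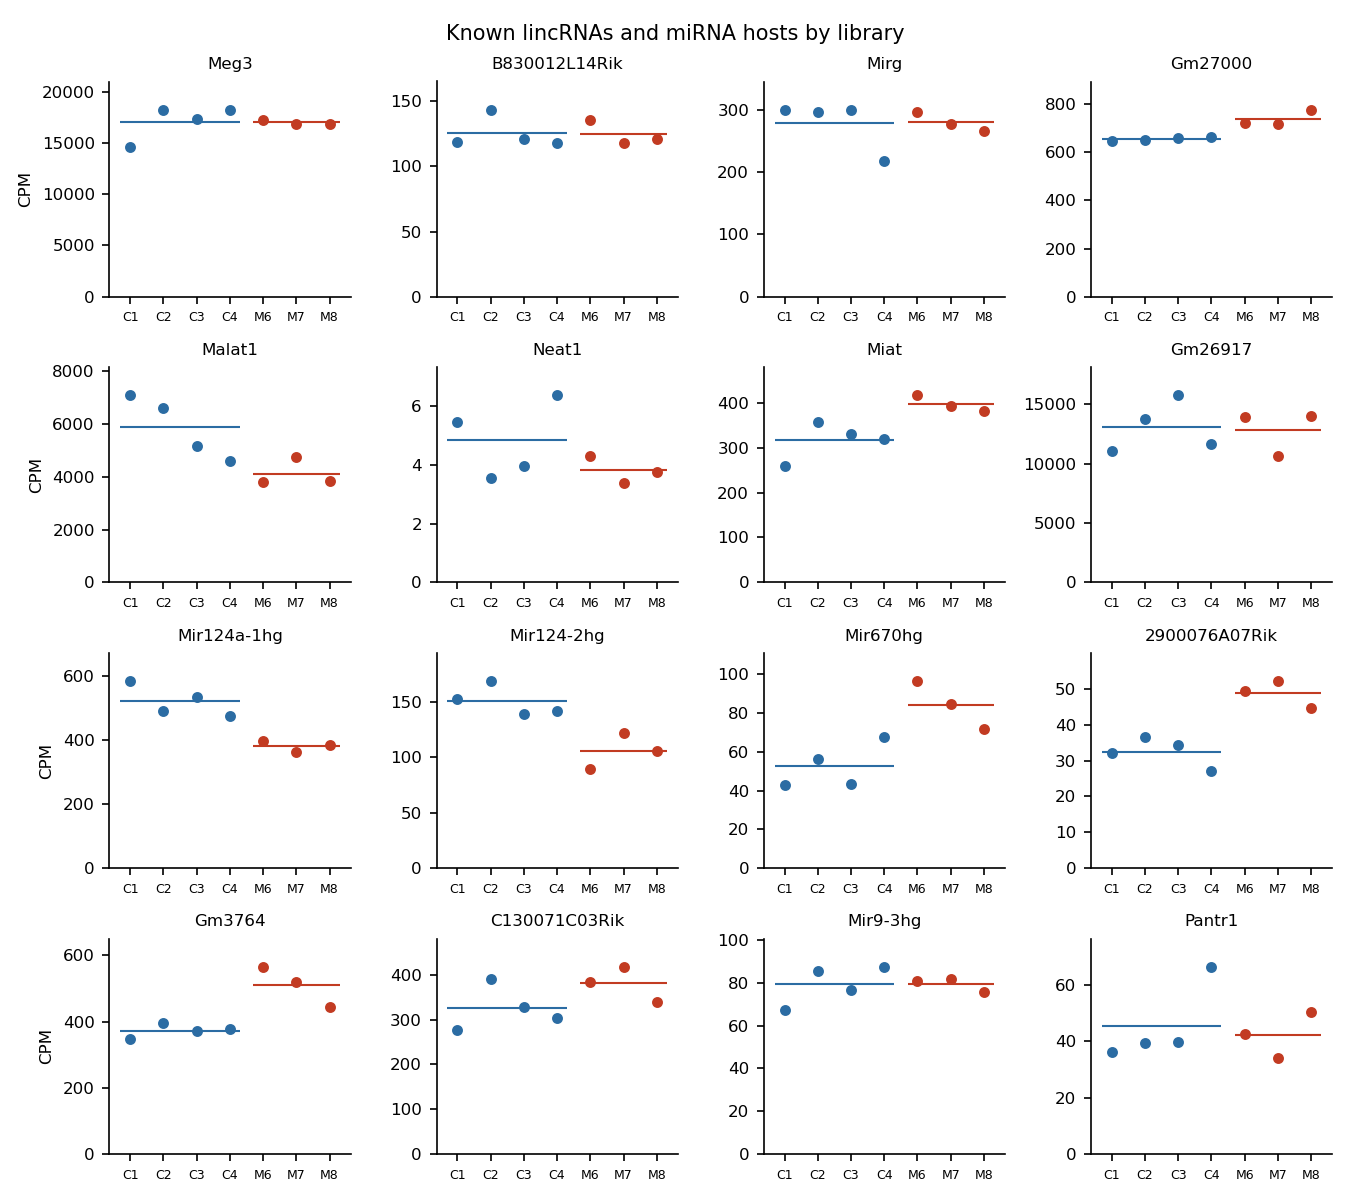
Each panel is 1 lincRNA with a known name or a microRNA, with TMM-scaled CPM from 0 on the vertical axis, controls in blue (C1 to C4), mutants in red (M6 to M8) and a line at each group mean. Meg3, B830012L14Rik and Mirg have nearly equal group means, Malat1 overlaps through mutant 7, and the mutants of Mir124a-1hg and Mir124-2hg all lie under the controls.

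Calls of lincRNAs and of their nearest protein-coding genes were set side by side, as a description. The nearest protein-coding gene was compared for 16 of the 19 lower lincRNAs, and 4 of these neighbours were called lower and 0 higher (Hes1, Bcl2l11, Cyp11a1 and Akain1). It was compared for 12 of the 17 higher lincRNAs, and 3 neighbours were called higher and 0 lower (Snrpn, Nucb2 and Sox11). For the 276 lincRNAs that were not called, 236 neighbours were compared, with 7 called lower and 10 higher (7.20%, beside 9.42% of all tested genes). Across the 264 pairs compared, the Spearman correlation between the log2 fold changes of a lincRNA and of its nearest protein-coding gene was 0.26. Among 39 pairs over 100 kb apart it was 0.02, among 93 pairs 5 to 100 kb apart 0.33, and among 132 pairs within 5 kb 0.28. The correlation was 0.14 for the nearest gene on the same strand (246 pairs) and 0.35 for the 478 other tested lincRNAs with a tested neighbour. Pairs share their libraries and depth, some lincRNAs share a neighbour, and reads past a gene's end are not told apart by strand.

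**Figure D5:**
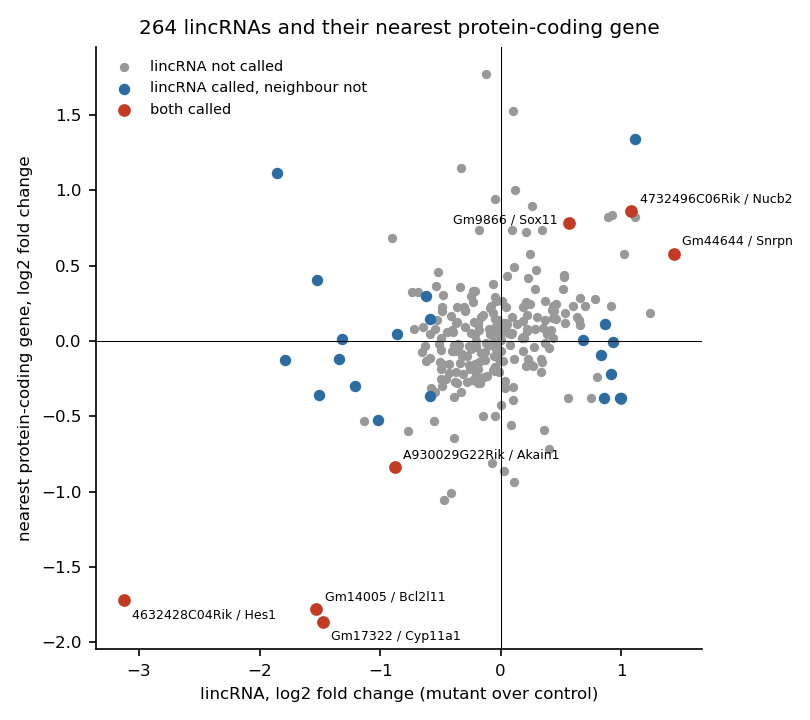
Log2 fold change of the nearest protein-coding gene against that of the lincRNA, for the 264 pairs compared; blue marks called lincRNAs and red those whose neighbour was called too. All 7 red points have the same sign for lincRNA and neighbour, 4 at the lower left and 3 at the upper right.

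Position and length are given by call. The 17 higher ones had a median span of 65.2 kb, the 19 lower ones 11.4 kb and the 276 uncalled ones 22.2 kb, while median merged exon lengths were 3.05, 2.22 and 2.07 kb. More than 100 kb from any protein-coding gene lay 8 of the 17 higher (47.1%), 1 of the 19 lower (5.26%) and 43 of the 276 uncalled lincRNAs (15.6%). Of the 17 higher ones, 3 lie in the chromosome 8 cluster (4930555F03Rik, Gm45321 and C130073E24Rik). Another 2 lie in the chromosome 7 cluster (Gm44644 and B230209E15Rik). The 8 distant ones include 4930555F03Rik and Gm45321 of the former and Gm44644 of the latter, so they are not all separate loci. Library differences went with span as well: over the 312 lincRNAs, the log2 ratio of control 1 to control 4 had a Spearman correlation of -0.60 with span, with a median of 0.10 for 100 lincRNAs under 10 kb and -0.98 for 62 over 100 kb. The fold change between genotypes had a Spearman correlation of 0.22 with span. All 36 calls were also made with an offset for genomic length, which called 61, and all 36 were made without controls 1 and 4, which called 77.

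Members at the edges of the selection and of the spread complete the description. Just inside the limit were AC148019.2, 0610043K17Rik and Gm36899, with mean counts of 50.6, 50.1 and 50.1, and just outside 6430584L05Rik, 4930467D21Rik and Gm10373, with 49.9, 49.9 and 49.7. The widest spread among controls was that of AC102496.1, at 19.3, 17.2, 5.56 and 3.39 CPM (coefficient of variation 70.8%), with 13.5, 2.29 and 8.05 CPM in mutants. Control and mutant libraries were mixed in that range, and 45.0% of the 50-base words of its transcript occur in transcripts of other genes. Only 8 of the 312 lincRNAs had 10% or more of these words in other genes, and edgeR called 0 of them, beside 11.5% of all members. The median SE of the log2 fold change was 0.26 for the 120 lincRNAs with a mean count under 100, 0.20 for the 160 from 100 to 1000 and 0.15 for the 32 above, although the 3 most counted, Meg3, Gm26917 and Malat1, had SEs of 0.28, 0.28 and 0.25. Of these classes 13, 18 and 5 lincRNAs were called, and 1 CPM stood for 10.9 to 13.2 reads.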

How the data were processed

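Nuclear RNA of sorted GABAergic nuclei was sequenced in 8 samples, with SMART-Seq v4 cDNA, Nextera XT libraries and paired-end NextSeq reads per the labels' protocols. The deposited values are the authors' counts of reads per gene, raw whole numbers. Per the submitters' processing notes, Bowtie2 2.5.3 and the build mm10 (GRCm38) were used; the counting program, its settings and its annotation are not given in the sources used here. The cDNA was amplified by PCR without molecular identifiers, so reads are not independent molecules. Groups came from the sample titles, and 1 mouse per sample means that p-values measure the spread between mice.

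All genes were fitted together in R 4.3.3 with edgeR 4.0.16 (filterByExpr by group with a least count of 10 and a least total of 15, TMM, glmQLFit robust, glmQLFTest, 4 controls against 3 mutants, two-sided). P-values were adjusted by Benjamini-Hochberg over 16448 tested genes and called under 0.05. The SE is the log2 fold change over the square root of F. CPM used TMM-scaled totals of 10893391 to 13233232 reads, and levels per length used merged GENCODE M21 exons, as fixed in the design; unshared span was added after the counting pattern was seen. Alternatives were DESeq2 1.42.0, limma 3.58.1 voom with quality weights, other scalings, no filter, a length offset, a covariate for Y-linked reads, other memberships and each library left out. The fit was tested on simulated data. A neighbouring gene that is not reported here was left out of the comparison with nearest genes.

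The members and gene lists were chosen with earlier results of these data known. Named genes are Thra, Pvalb, the 10 highest members per kb of exons, the 10 largest falls and rises among called members without overlap, members of the gene lists, nearest protein-coding genes, members at the count limit and those of extreme spread.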

Additional observations from a re-analysis of the deposited data

Results flagged for a closer look

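In 7 of 65 lincRNAs and checks examined, 1 control stood apart from the other 3, which chance gives for about 1 in 20 values of this kind. Control 4 was above the other controls for A930029G22Rik (33.6 CPM, others 22.2 to 23.5), Gm20045 (19.3 CPM, others 16.02 to 16.2), AC166748.2 (15.002 CPM, others 6.20 to 6.62), Gm14114 (8.71 CPM, others 4.16 to 4.796) and Pantr1 (66.4 CPM, others 36.2 to 39.7). It was below them for Mirg (218.7 CPM, others 296 to 301). Control 2 was above the others for B830012L14Rik (144 CPM, others 118 to 121). The 3 mutants were too few for such a check. For the called lincRNAs A930029G22Rik, Gm20045 and Gm14114, which were lower in mutants, the high control lay on the side away from the mutants, and for AC166748.2, which was higher in mutants, it lay between the groups. All 4 of these calls were also made without control 4.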

How the results depend on the processing

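No called lincRNA changed sign in any alternative. The 36 calls (19 lower, 17 higher) became 82 (38 and 44) with limma-voom and quality weights, 61 with a genomic length offset (33 higher), 28 higher with DESeq2, 19 (6 higher) with an absolute log2 fold change over 1, 23 (9 lower) of 192 at a mean count of 100, 11 lower without members that share a base with an exon of another gene, and 11 lower at 5 kb or more from a protein-coding gene. The counts at a mean count of 100, without shared exon bases and at 5 kb or more are over fewer members. Of the 312, 149 lie within 5 kb of a protein-coding gene. With controls 1 and 4 both left out, an alternative chosen after seeing the data, there were 77 calls (39 and 38). Leaving out 1 library gave 16 to 69 calls, 10 to 30 lower and 6 to 41 higher, and the mutant libraries 6, 7 and 8 and control 4 moved the total by more than 1.5 times. Of the 36, 11 were called in every fit, 7 lower and 4 higher, and 34 in every fit with all libraries; Mir124-2hg and Gm20045 were lost with library totals (adjusted p 0.0571 and 0.0585). The cause of these shifts was not tested. The members' share of counts averaged 4.66% and was 2.96% without Meg3. The median level was 5.52 CPM per kb of exons, 0.668 per kb of span and 0.732 per kb of unshared span, the last added after seeing the data. The Spearman correlation with the nearest gene was 0.26 on any strand and 0.14 on the same strand. No paired analysis was possible because the groups share no replicate numbers. The 120 members with a mean count under 100 had a median SE of 0.26, against 0.15 for the 32 with 1000 or more; whether depth limited their calls was not tested.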
